A study of Mus musculus with 6 samples.

Results

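Regulatory CD4 T cells were compared with memory CD4 T cells of the mouse, on 4 of the 6 Affymetrix arrays of a study of the protease Furin. There was 1 array for each population and genotype. Both populations were taken fresh from C57BL/6 mice of 10 to 11 weeks by flow cytometric sorting, the memory cells as CD4+CD62L-CD44+ and the regulatory cells as CD4+CD25+FoxP3+. All mice carried loxP-flanked alleles of the Furin gene (Fur flox/flox); those called Furin cKO also carried a Cre recombinase under CD4 control (CD4 cre Fur flox/flox), and those without Cre are called control. The other 2 arrays, of naive cells activated through the T cell receptor, entered the estimate of the spread, the floor and the choice of a probe set for each gene, and show where a gene was dim outside both populations. Beyond CD4 the 2 gates name different markers, so that the labels do not say whether regulatory cells were left out of the memory sort. The part of such an overlap in the differences below was not tested. The labels do not say how many animals gave RNA to an array, or whether both populations came from the same animals. The comparison was made separately within each genotype, as the log2 of the signal on the regulatory array over that on the memory array, and a difference was counted where both genotypes agreed. Of 18193 genes with a probe set of 1 symbol, 13334 were measured in both genotypes, meaning that at least 1 array of each pair reached a floor of 47.6. The floor is the pooled 40th percentile of all signals, and signals below it were raised to it, so that a fold against such an array is a lower bound, written "at least". Signals of a population are given with the control array first and the Furin cKO array second. Each is the linear signal of 1 array, so that no value has a replicate and no spread between animals is known.

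Regulatory T cells restrain other lymphocytes. Their programme is directed by the transcription factor Foxp3, and they carry the inhibitory receptor CTLA-4, which competes for costimulatory ligands, and a high-affinity receptor for interleukin 2, of which CD25, encoded by Il2ra, is the alpha chain. Memory CD4 T cells have met antigen before. They hold open the genes of effector cytokines, chemokines and tissue homing receptors, and a part of them shares genes with cytotoxic and innate-like lymphocytes.

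The promoters of 5 genes on which the description turns are shown for orientation: Il2ra and Gpr83, which mark the regulatory arrays, Cxcr6, which marks the memory arrays, and the neighbours Flicr and Foxp3, whose signals went opposite ways. Each run is the 250 bases before the RefSeq start in GRCm38.p6, on the plus strand, at chr2:11642542-11642791 for Il2ra, chr9:14859960-14860209 for Gpr83, chr9:123806227-123806476 for Cxcr6, chrX:7573350-7573599 for Flicr and chrX:7579426-7579675 for Foxp3 (1 of 2 windows listed). Capitals mark the only matches to the 4 motifs searched on both strands, a forkhead motif (TGTTTAC), a T-box motif (GGTGTGA), a RUNX motif (TGTGGTT) and an ETS motif (ACTTCCT), none of which overlap.
Il2ra: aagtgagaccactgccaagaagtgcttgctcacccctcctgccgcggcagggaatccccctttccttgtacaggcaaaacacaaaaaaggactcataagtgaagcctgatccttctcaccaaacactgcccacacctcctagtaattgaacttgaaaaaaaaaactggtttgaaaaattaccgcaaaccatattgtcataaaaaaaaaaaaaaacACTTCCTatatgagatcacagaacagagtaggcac
Gpr83: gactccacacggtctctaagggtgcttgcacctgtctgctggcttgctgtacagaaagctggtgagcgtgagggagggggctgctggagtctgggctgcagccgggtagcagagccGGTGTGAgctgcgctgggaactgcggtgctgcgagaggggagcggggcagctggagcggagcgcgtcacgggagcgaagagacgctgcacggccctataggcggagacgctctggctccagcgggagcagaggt
Cxcr6: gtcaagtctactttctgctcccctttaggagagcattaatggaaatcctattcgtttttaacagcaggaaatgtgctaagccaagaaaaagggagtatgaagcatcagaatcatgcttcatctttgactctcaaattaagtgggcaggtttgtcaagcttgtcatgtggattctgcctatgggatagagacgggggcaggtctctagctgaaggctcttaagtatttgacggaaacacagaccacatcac
Flicr: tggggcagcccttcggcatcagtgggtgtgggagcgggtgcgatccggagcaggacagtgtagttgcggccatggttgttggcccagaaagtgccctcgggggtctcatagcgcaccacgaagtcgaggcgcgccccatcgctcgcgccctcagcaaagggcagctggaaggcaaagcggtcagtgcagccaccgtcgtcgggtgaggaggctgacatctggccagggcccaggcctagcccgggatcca
Foxp3: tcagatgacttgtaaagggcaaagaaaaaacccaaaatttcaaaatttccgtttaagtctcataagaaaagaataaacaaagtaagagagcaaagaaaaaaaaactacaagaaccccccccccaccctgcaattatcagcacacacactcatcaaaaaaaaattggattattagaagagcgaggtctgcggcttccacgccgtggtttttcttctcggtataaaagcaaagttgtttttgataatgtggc

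Il2ra held the ETS motif and Gpr83 the T-box motif. Cxcr6, Flicr, Foxp3 and Ctla4 (window at chr1:60908775-60909024) held none of the 4 in these windows. Over all 32851 windows of that length in the table, 7.69% held the ETS motif, 4.40% the RUNX motif, 3.33% the T-box motif and 3.17% the forkhead motif. In the 170 windows of genes at least 2-fold higher on the regulatory arrays of both genotypes the shares were 9.41%, 2.94%, 4.71% and 1.76%. The 389 windows of genes at least 2-fold lower had 11.6%, 4.11%, 2.57% and 1.80%, and those of all measured genes 7.45%, 3.38%, 3.02% and 2.46%. These matches are letters in a window and describe no binding.

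The arrays were first set against their labels. Ctla4, Il2ra, Ikzf2 and Gpr83 are known markers of regulatory cells. Ctla4, Il2ra and Gpr83, like Cxcr6 and Ctsw below, served to choose the comparison, so that their directions are no test of the labels. Ctla4 read 3339.9 and 2934 in memory cells and 11033 and 10619 in regulatory cells, 3.3-fold and 3.62-fold higher. Il2ra, part of the sorting gate as CD25, read 1190.3 and 627 in memory and 4277 and 3702 in regulatory cells, and Ikzf2, which encodes the factor Helios, read 9419 and 8213 in memory and 13901 and 15968 in regulatory cells. Gpr83, an orphan receptor known from regulatory cells, read 688 and 434 in memory and 2972 and 2707 in regulatory cells. In these 4 genes both regulatory arrays lay above both memory arrays, which held for 24.5% of all measured genes. Not all of these levels were particular to the regulatory arrays: on those of activated naive cells Ctla4 read 11925 and 10316, Il2ra 2320.5 and 2340.2, Ikzf2 582 and 442 and Gpr83 312 and 281.

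Foxp3 itself went against the label. Its only probe set read 1358 and 1116 in memory cells and 50.4 and 33.8 in regulatory cells, the second of these below the floor, although the regulatory cells were sorted as FoxP3+. The log2 difference was -4.75 in the control pair and, as a bound, -4.55 or lower in the Furin cKO pair, and on the arrays of activated naive cells the gene read 27 and 11.9. Flicr, a noncoding RNA gene that lies next to Foxp3 on chromosome X with 0 genes listed between them, read 154 and 181 in memory and 536 and 504 in regulatory cells, 3.48-fold and 2.79-fold higher. The position of the Foxp3 probe set in the transcript is not stated in the material used, and what sets its signal apart was not tested. The arrays are called by their labels below, and every direction rests on them.

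Furin, the targeted gene, read 647 and 2203 in memory cells and 547 and 410.0 in regulatory cells. The memory array labelled Furin cKO was thus the highest of the 4, and the only Furin probe set cannot be placed inside or outside the deleted part from that material. With the memory arrays exchanged between the genotypes, a setting added after the data were seen, 180 genes were higher and 368 lower by at least 2-fold in both genotypes. These held 144 of the 179 and 306 of the 366 counted under the labels.

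On each of the 4 arrays the trimmed mean signal was 500. Between 62.6% and 67.4% of their probe sets reached the floor. The hybridisation control bioB had mean signals of 5829 and 4496 in memory cells and 2795 and 2635 in regulatory cells, and the actin 3'/5' ratio, a measure of RNA quality, was 1.93 and 1.56 on the former and 1.35 and 1.36 on the latter. Both measures differed between the populations as well as between the memory arrays, and their part in the differences below was not tested. Hybridisation and population cannot be told apart in this design. Log2 signals of the 2 memory arrays correlated at 0.962 across genes and the log2 signals of the 2 regulatory arrays at 0.981.

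In both genotypes 179 genes (1.34% of those measured) were at least 2-fold higher on the regulatory array, and 366 genes (2.74%) at least 2-fold lower. Of these, 59 higher and 138 lower genes lay below the floor on some array, so that their folds include bounds. Within the control pair alone 630 genes were at least 2-fold higher and 850 lower, and within the Furin cKO pair 816 and 1119. At least 2-fold differences in opposite directions were seen in 62 genes (0.465%). Across all measured genes the median log2 difference was -0.02 in the control and -0.04 in the Furin cKO pair, 66% of genes had the same direction in both, and the log2 differences correlated at 0.494 across genes, which are not independent replicates.

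A limma model with population and genotype as factors, fitted to the 6 arrays, called 0 of 15811 genes at a Benjamini-Hochberg adjusted p below 0.05. Its smallest adjusted p was 0.0518, shared by Foxp3, Cxcr6, Ctsw, Id2, Klrd1, Mpeg1 and Ctla4 among others. Foxp3 was raised to the floor on the Furin cKO regulatory array and both activated arrays, so that its spread in the fit is partly set by the floor. At an unadjusted p below 0.05 it gave 1539 genes higher and 1820 lower. The fit has 2 residual degrees of freedom and measures how far the population difference varied between the genotypes, not between animals. Over the 10828 genes above the floor on all 4 arrays, 175 were called higher and 261 lower, with a smallest adjusted p of 0.00667.

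**Figure D1:**
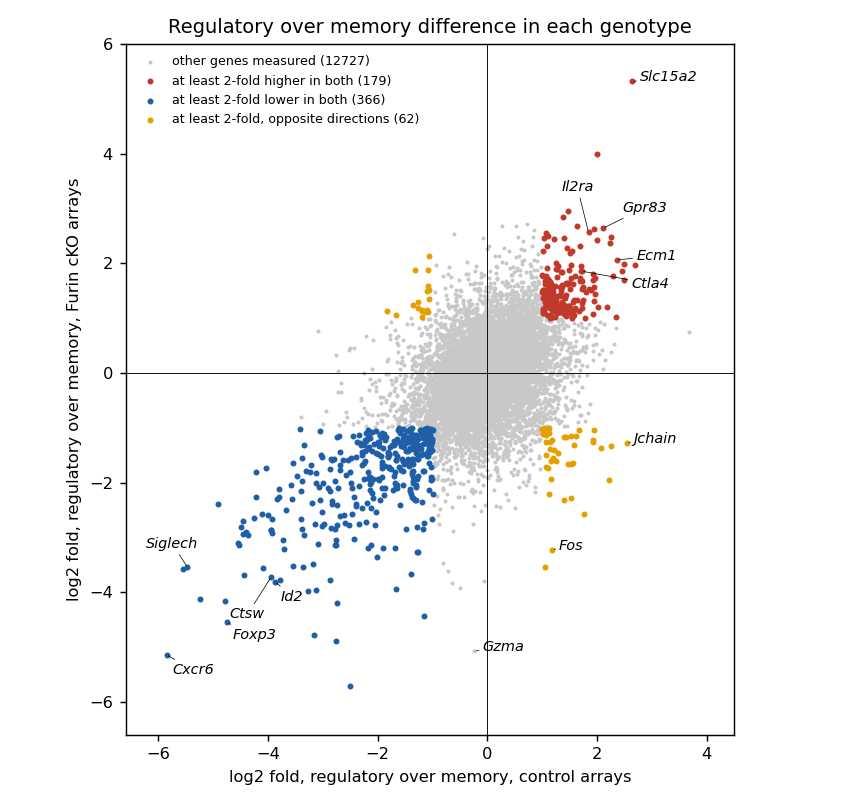
Log2 difference of regulatory over memory signal in the control pair (x axis) and the Furin cKO pair (y axis), 1 point per measured gene. Red and blue points are the 179 genes higher and the 366 genes lower by at least 2-fold in both pairs, orange points the 62 in opposite directions; Cxcr6 lies farthest down the diagonal, and Slc15a2, Gpr83, Il2ra and Ecm1 lie toward its upper end.

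Lineage markers of T cells read much alike in the 2 populations. None of the 8 measured genes of that list was at least 2-fold apart in both genotypes; Cd3e, a chain of the CD3 complex, read 8712 and 8419 in memory and 6552 and 4974 in regulatory cells, and Cd4 read 3488 and 3768 in memory and 2752 and 2474 in regulatory cells. Markers of dendritic cells and monocytes were at higher signal on the memory arrays. The summed signal of the plasmacytoid dendritic cell list was 34312 and 20563 in memory cells and 7362 and 6903 in regulatory cells, with 11 of 18 measured members at least 2-fold lower in both genotypes. For conventional dendritic cell and MHC class II genes the sums were 70176 and 37918 in memory and 12684 and 12534 in regulatory cells, with 8 of 14 lower, and for monocyte and macrophage genes 22564 and 12890 in memory and 5019 and 5051 in regulatory cells, with 7 of 18 lower. Among all measured genes 2.74% were at least 2-fold lower in both genotypes. No member of these 3 lists was at least 2-fold higher in both, beside 1.34% of all measured genes.

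Siglech, a lectin of plasmacytoid dendritic cells, read 2943 and 1111 in memory cells and 66.3 and 95.3 in regulatory cells. H2-Ab1, the beta chain of an MHC class II molecule, read 7618 and 3246 in memory and 475 and 541 in regulatory cells. Pld4 and Tcf4, of the plasmacytoid list, read, in this order, 2221 and 784 in memory and 15.4 and 65.8 in regulatory cells, and 1381 and 533 in memory and 151 and 103 in regulatory cells. In each of these genes the control memory array was the highest of the 4. Some defining members did not separate that way. Itgam, the integrin of monocytes and granulocytes, read 44.8 and 63.9 in memory and 65.8 and 109 in regulatory cells, and Xcr1 of conventional dendritic cells 33.8 and 62.7 in memory and 64.5 and 38.8 in regulatory cells. Lyz2, a lysozyme of myeloid cells, was higher on the memory arrays by less than 2-fold (917 and 1026 in memory and 471 and 524 in regulatory cells).

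B cell genes summed to 17127 and 14491 on the memory and 18882 and 16470 on the regulatory arrays, the sum being mostly Ighm, the heavy chain of IgM, which was higher on both regulatory arrays. Without regard to size, 8 of 11 measured members were lower in both genotypes, against 35.3% of all measured genes. Another 1 was higher, against 30.7%, and the medians were -0.70 and -0.93. Of the lower members 1 was at least 2-fold lower in both genotypes, Blnk, an adaptor of B cell receptor signalling (908 and 551 in memory and 87.9 and 12.9 in regulatory cells). Of the 366 lower genes, 33 stood on a marker list of another cell type, 26 of these on the dendritic or myeloid lists, and 333 stood on none. Of the 179 higher genes 1 stood on such a list. The lists are short, and the share of all measured genes on them was not counted. The 333 may thus hold further genes of other cells: Clec10a, a lectin of macrophages and dendritic cells described below, stood on no list. Genes below the floor on both arrays of activated naive cells made up 43.2% of the lower genes, 32.4% of the higher genes and 21.9% of all measured genes. The part of other cells in the differences below was not tested. In RNA from sorted cells, fewer cells of a type and less RNA per cell cannot be told apart.

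**Figure D2:**
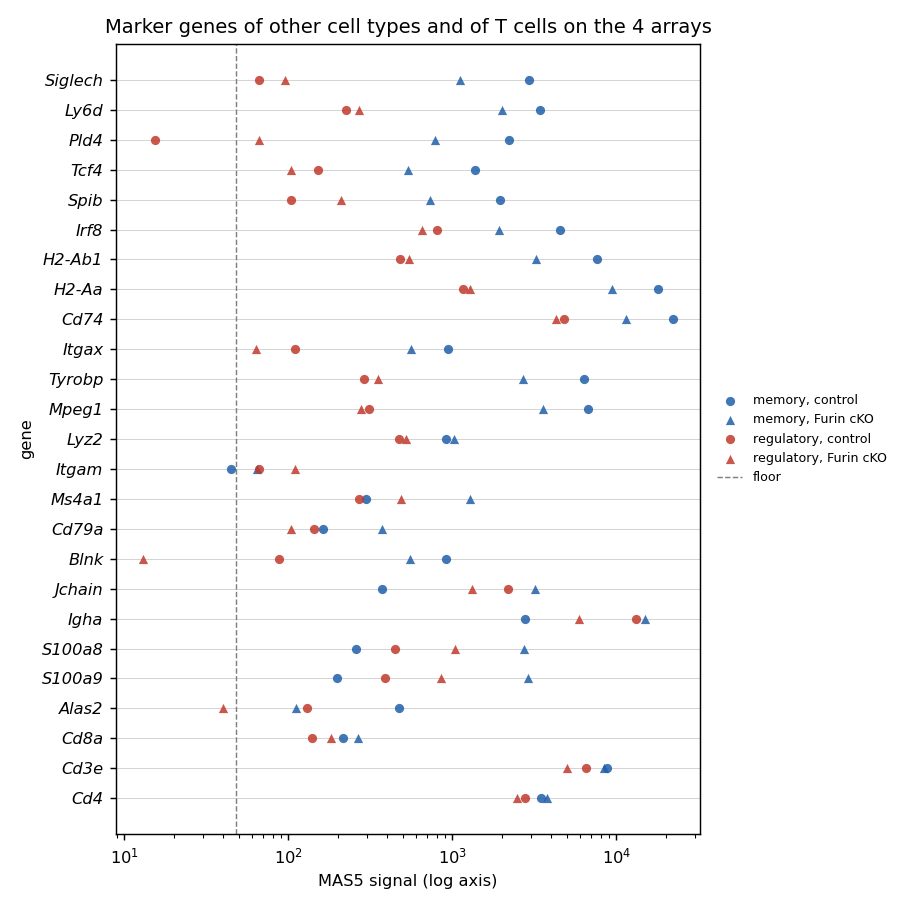
MAS5 signal (log axis) of marker genes of other cell types and of 3 T cell genes on the 4 arrays, memory in blue and regulatory in red, circles for control and triangles for Furin cKO, with the floor of 47.6 as a dashed line. Siglech, Tcf4, H2-Ab1, Tyrobp and Mpeg1 show both memory arrays well to the right of both regulatory arrays, whereas Itgam, Cd3e and Cd4 lie close together.

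Genes of the regulatory T cell signature were higher on the regulatory arrays with few exceptions. Of 28 measured members 26 were higher in both genotypes by any amount, against 30.7% of all measured genes. At least 2-fold higher were 6, beside 1.34% of all measured genes, namely Gpr83, Ecm1, Il2ra, Ctla4, Capg and Tnfrsf18. The median log2 difference of the list was 0.67 in the control and 1.03 in the Furin cKO pair. The list rests on textbook regulatory genes, and several of its members served to choose the comparison.

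Ecm1, a secreted matrix protein, read 578 and 822 in memory cells and 2978 and 3432 in regulatory cells, 5.15-fold and 4.17-fold higher. Capg, an actin-capping protein, read 3099 and 1928 in memory and 6507 and 6513 in regulatory cells. Tnfrsf18 encodes GITR, a costimulatory receptor of regulatory cells, and read 7903 and 7828 in memory and 17376 and 15756 in regulatory cells. For these genes the regulatory arrays of both genotypes were close together, and the groups did not overlap. Both regulatory arrays were above both memory arrays in 24.5% of all measured genes.

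Other members of the signature lay nearer to each other. Nrp1, the semaphorin receptor neuropilin 1, read 3110.2 and 1835 in memory and 4904 and 5766 in regulatory cells, and Izumo1r, which encodes folate receptor 4, 8229.6 and 6626 in memory and 13455 and 11739.8 in regulatory cells. The zinc finger factor gene Ikzf4, a relative of Ikzf2, read 1039 and 659 in memory and 1337 and 1224 in regulatory cells, and Il10, an inhibitory cytokine gene, 240.5 and 197 in memory and 350.4 and 409 in regulatory cells. Itgae, the CD103 integrin chain, read 2287 and 1069 in memory and 3328 and 4051 in regulatory cells, with the memory arrays further apart than the regulatory ones. The ectonucleotidase genes Entpd1 (CD39) and Nt5e (CD73) read, in this order, 580.5 and 496 in memory and 582 and 532 in regulatory cells, and 3669.9 and 1868 in memory and 4059 and 5464 in regulatory cells. By its brightest probe set Entpd1 was thus alike in both populations. Its other probe sets above the floor had mean log2 differences between 0.37 and 0.60. Beside Foxp3, Fgl2, a secreted fibrinogen-like protein, was the other member at lower signal in both genotypes (1403 and 1746 in memory and 1165 and 1273 in regulatory cells).

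**Figure D3:**
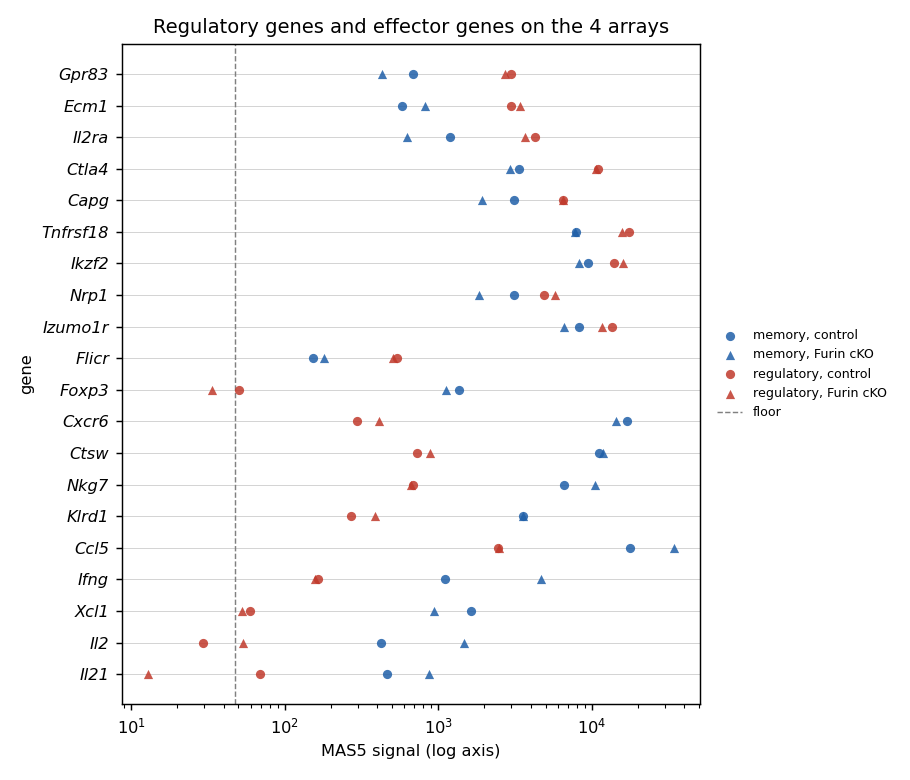
MAS5 signal (log axis) of 11 regulatory signature or neighbouring genes (top) and 9 effector genes (bottom) on the 4 arrays, colours for population and shapes for genotype, with the floor as a dashed line. From Gpr83 to Flicr both red points lie right of both blue points; Foxp3 and the genes from Cxcr6 down show the reverse order.

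Costimulatory receptors of the TNF receptor family leaned the same way. Of 16 measured, 8 were higher in both genotypes and 4 lower, beside 30.7% and 35.3% of all measured genes. At least 2-fold higher was 1 (Tnfrsf18), and the medians were 0.37 and 0.22. Tnfrsf4, which encodes OX40, read 4403 and 5654 in memory cells and 10894 and 9766 in regulatory cells, and Tnfrsf9 (4-1BB) read 3026 and 2211 in memory and 4598 and 4004 in regulatory cells. Cd27 read 4278 and 2099.9 in memory and 6727 and 5795 in regulatory cells, with the low value on the Furin cKO memory array. Tnfrsf1a, a receptor of TNF, was lower, at 1779 and 1459 in memory and 937 and 926 in regulatory cells.

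Inhibitory receptors went both ways. Of 17 measured, 7 were higher and 5 lower in both genotypes, not far from the 30.7% and 35.3% of all measured genes. At least 2-fold higher were 2 (Ctla4 and Cd200r1) and at least 2-fold lower 2 (Cd160 and Lair1). Cd160, a receptor of cytotoxic and innate-like lymphocytes, read 2431 and 1855 in memory cells and 359.9 and 224 in regulatory cells, and Lair1, a collagen receptor also on the plasmacytoid list, 798 and 826 in memory and 117 and 116 in regulatory cells. Cd200r1 read 446 and 556 in memory and 1112 and 1198 in regulatory cells, and Cd274, which encodes PD-L1, 985 and 748 in memory and 1772 and 1427 in regulatory cells. Lag3 was alike in both populations (828 and 647 in memory and 807 and 622 in regulatory cells), as was Cd5 (13125 and 12432 in memory and 15196 and 14214 in regulatory cells). Pdcd1, which encodes PD-1, was lower in the control pair and higher in the Furin cKO pair, at log2 differences of -0.45 and 0.11.

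Transcription factor genes separated the populations in both directions. Of 42 measured, 2 were at least 2-fold higher in both genotypes (Tox and Myb) and 8 at least 2-fold lower, which were Foxp3, Id2, Tbx21, Zbtb16, Irf8, Tox2, Bhlhe40 and Zeb2. Those shares stand beside the 1.34% and 2.74% of all measured genes. Id2, an inhibitor of E proteins with a large role in effector and innate lymphocytes, read 16359.9 and 14505 in memory cells and 1119 and 1038 in regulatory cells, 14.6-fold and 14.0-fold lower. Its relative Id3 went the other way, at 1876 and 1099 in memory and 3111 and 2707 in regulatory cells.

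Tbx21 encodes T-bet, the factor of type 1 differentiation, and read 3616 and 3396 in memory and 445 and 493 in regulatory cells, 8.13-fold and 6.89-fold lower. Zbtb16, which encodes PLZF of innate-like T cells, read 822 and 148 in memory and 69.9 and 43.8 in regulatory cells, so that the memory arrays themselves were far apart. Bhlhe40, a factor of cytokine-producing effector cells, read 1929 and 5581 in memory and 794 and 793 in regulatory cells, and Tox2, a factor of follicular helper cells, 4132 and 5374 in memory and 1593 and 1735 in regulatory cells. Irf8, at 4521 and 1909.9 in memory and 801 and 649.9 in regulatory cells, is also a dendritic cell factor and stands on the plasmacytoid list.

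Tox, an HMG-box factor, read 1033 and 858 in memory cells and 3139.6 and 2938 in regulatory cells, 3.04-fold and 3.43-fold higher. Myb read 919.6 and 781 in memory and 1982 and 2344 in regulatory cells. Bach2, a repressor of effector differentiation, read 1222 and 723 in memory and 2136 and 1800.3 in regulatory cells, and Lef1, a factor of the Wnt pathway in naive T cells, 2959 and 2511 in memory and 4788 and 4603 in regulatory cells. Prdm1, which encodes Blimp-1, read 1166 and 1312 in memory and 2008 and 1969 in regulatory cells. In these 5 genes both regulatory arrays lay above both memory arrays, as in 24.5% of all measured genes. Gata3 (2640.2 and 1559 in memory and 2329 and 2038 in regulatory cells), Maf, Eomes, Bcl6 and Foxo1 differed in direction between the genotypes, and Batf (2866 and 3113 in memory and 3543 and 3694 in regulatory cells) was slightly higher in both. Members at more modest lower signal were Runx3 (1132 and 1212 in memory and 660.2 and 662 in regulatory cells) and Rora (3701 and 3652 in memory and 2236 and 2072 in regulatory cells).

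**Figure D4:**
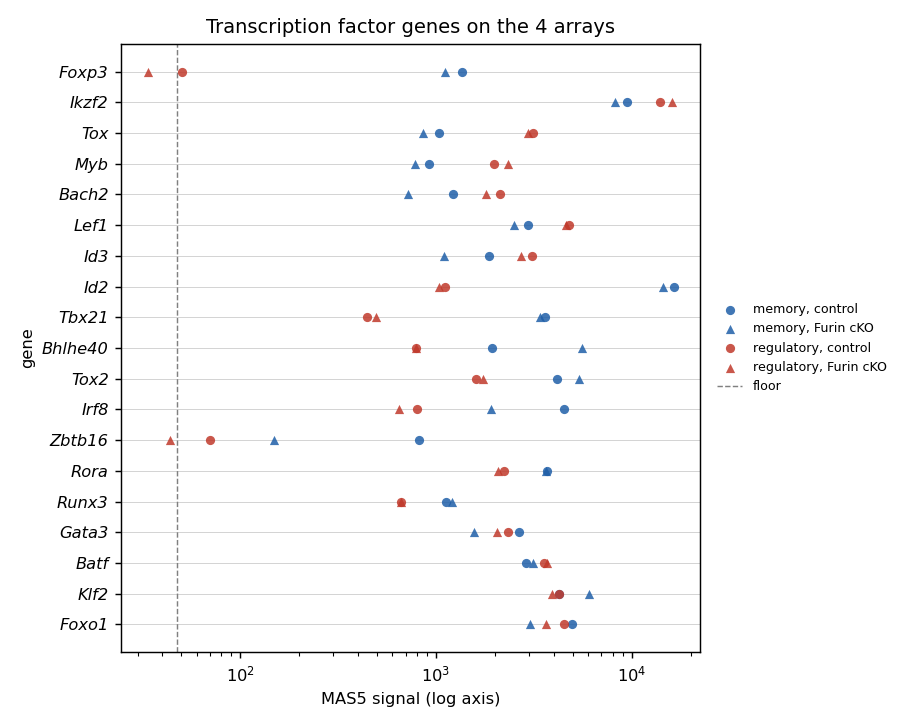
MAS5 signal (log axis) of 19 transcription factor genes on the 4 arrays, colours for population and shapes for genotype, with the floor of 47.6 as a dashed line. Ikzf2, Tox, Myb, Bach2, Lef1 and Id3 show both regulatory arrays to the right; Foxp3 and Id2 through Runx3 show them to the left.

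Genes of type 1 effector cells were lower on the regulatory arrays. Of 18 measured members 10 were at least 2-fold lower in both genotypes and none at least 2-fold higher, beside 2.74% and 1.34% of all measured genes. The 10 include Cxcr6, which served to choose the comparison. The medians were -1.23 and -2.44. Cxcr6, a chemokine receptor of tissue-homing effector and memory cells, read 16966 and 14481 in memory cells and 295 and 409.5 in regulatory cells, 57.5-fold and 35.4-fold lower, and led all measured genes above the floor on the 4 arrays. Its other probe set above the floor had a mean log2 difference of -6.14.

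Ifng, the gene of interferon-gamma, read 1114 and 4675 in memory cells and 164 and 157 in regulatory cells. Ccl5, a chemokine of effector cells, read 17869 and 34172 in memory and 2455 and 2489 in regulatory cells. Both had regulatory arrays close together, while the Furin cKO memory array lay above the control one. Il18r1 and Il18rap, the chains of the interleukin 18 receptor, read, in this order, 7743 and 19594 in memory and 2069 and 2134 in regulatory cells, and 2168 and 4719 in memory and 535 and 461 in regulatory cells. Cxcr3, a receptor for interferon-induced chemokines, read 21121 and 27796 in memory and 8834 and 7545 in regulatory cells. Stat4, which transmits interleukin 12 signals, differed less, at 5018 and 4727 in memory and 3402 and 3024 in regulatory cells, and Ifngr1, a chain of the interferon-gamma receptor, was the one member higher in both genotypes (2358 and 3687 in memory and 4195 and 4254 in regulatory cells).

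Cytotoxic granule and NK receptor genes were mostly lower as well. Of 21 measured, 12 were at least 2-fold lower in both genotypes and none at least 2-fold higher, beside 2.74% and 1.34% of all measured genes. The 12 include Ctsw, which served to choose the comparison, and the medians were -2.51 and -2.75. On no list of another cell type stood 9 of the 12, but the NK cell list is short and lacks Klrd1, Nkg7 and Klrk1. Of that NK cell list Klre1 and Klrb1b were at least 2-fold lower in both genotypes, and Eomes and Ncr1 differed in direction. The part of NK cells was not tested. Ctsw, a cathepsin of cytotoxic lymphocytes, read 11175 and 11799 in memory cells and 724 and 891 in regulatory cells, 15.4-fold and 13.2-fold lower. Nkg7, a granule protein, read 6636 and 10514 in memory and 686 and 668 in regulatory cells, and Klrd1, which encodes the NK receptor chain CD94, 3545 and 3585 in memory and 272 and 386 in regulatory cells. Fasl, the death ligand, read 2094 and 1433 in memory and 206 and 184 in regulatory cells. In these 4 genes both regulatory arrays lay far below both memory arrays. By any amount, both lay below in 28.5% of all measured genes.

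For some members of this list the memory arrays were far apart. Gzmk, granzyme K, read 655 and 6215 in memory cells and 115 and 118 in regulatory cells, and Gzma, granzyme A, 479.7 and 18470.5 in memory and 406 and 549 in regulatory cells. The large value of Gzma on the Furin cKO memory array made its log2 differences -0.24 and -5.07. Klrk1, which encodes NKG2D, read 2116 and 905 in memory and 70.2 and 173 in regulatory cells. Gzmb did not follow: it read 653 and 2547 in memory and 1926 and 2444 in regulatory cells, higher in the control pair and alike in the Furin cKO pair. Prf1, perforin, read 327 and 235 in memory cells and 196 and 221 in regulatory cells, and Klrg1, a receptor of terminally differentiated effector cells, 3241 and 6319.5 in memory and 5317 and 4716 in regulatory cells, with overlapping groups.

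Of 9 measured genes of innate-like T cells 7 were at least 2-fold lower in both genotypes, beside 2.74% of all measured genes. The medians were -2.77 and -1.64. Trgv4 and Trgv1, named as variable segments of the gamma chain of the T cell receptor, read, in this order, 2723 and 699 in memory and 178 and 109.7 in regulatory cells, and 2828 and 543 in memory and 342 and 261 in regulatory cells; segments of this family are alike in sequence and a probe set may read more than 1. Tmem176b, a membrane protein of type 17 and dendritic cells, read 2841 and 1917 in memory and 387 and 432 in regulatory cells. Plac8 read 7247 and 24720.0 in memory and 2991 and 2568 in regulatory cells. In Trgv1, Trgv4 and Zbtb16 the control memory array lay well above the Furin cKO one, and in Plac8 below it.

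Secreted cytokines showed a similar direction. Of 25 measured, 13 were at least 2-fold lower in both genotypes and none at least 2-fold higher, beside 2.74% and 1.34% of all measured genes. The medians were -1.11 and -1.46. All 13 stood on none of the short lists of other cell types, and the part of such cells was not tested. Il2, the T cell growth factor that regulatory cells take up but hardly make, read 424 and 1465 in memory cells and 29.2 and 53.3 in regulatory cells. Its control fold is a bound, since the regulatory array lay below the floor: at least 8.91-fold and 27.5-fold lower. Il21, a cytokine of follicular helper cells, read 466 and 868 in memory and 69.5 and 12.9 in regulatory cells, and Il4, the signature cytokine of type 2 cells, 1408 and 428 in memory and 99.1 and 87.3 in regulatory cells. Xcl1, a chemokine that attracts dendritic cells, read 1642 and 939.9 in memory and 59.2 and 52.7 in regulatory cells, 27.7-fold and 17.8-fold lower.

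Tnfsf14 (LIGHT) read 2323 and 1179 in memory cells and 234 and 343 in regulatory cells, and Csf2, the gene of GM-CSF, 232 and 217 in memory and 54.3 and 6.5 in regulatory cells. Il17a was dim on all 4 arrays, at 134 and 131 in memory and 62.3 and 32.6 in regulatory cells. Lta, the gene of lymphotoxin alpha, was higher instead (1098 and 795 in memory and 1857 and 1381 in regulatory cells), and Tnf read 623 and 492 in memory and 667 and 600.2 in regulatory cells. Tgfb1, whose product Furin can cut, read 2932 and 1788 in memory and 1979.7 and 1919.5 in regulatory cells, lower in the control and about level in the Furin cKO pair. Il5, Il13, Il3 and Il6 were not measured in both genotypes.

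Type 2 genes did not share a direction. Of 10 measured, 4 were higher and 3 lower in both genotypes, near the 30.7% and 35.3% of all measured genes. Ccr3 was at least 2-fold higher and Il4 at least 2-fold lower, and the medians were 0.18 and 0.34. Among 7 measured type 17 genes Il17a and Cd163l1 were at least 2-fold lower, and the medians were -0.73 and -0.82, while with the floor at the 60th percentile the mean of both was 0.10. Of 15 measured genes of follicular helper cells Tox was at least 2-fold higher and Il21, Tox2 and Cd40lg at least 2-fold lower. Of all measured genes 1.34% were at least 2-fold higher in both genotypes and 2.74% at least 2-fold lower. Cd40lg, the CD40 ligand, read 136 and 147 in memory and 25.4 and 67.5 in regulatory cells. Cxcr5, the homing receptor of these cells, read 2577 and 1549 in memory and 1875 and 1501 in regulatory cells.

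Cytokine receptors were divided by chain. Of 29 measured, 1 was at least 2-fold higher in both genotypes (Il2ra) and 7 at least 2-fold lower. Those shares stand beside 1.34% and 2.74% of all measured genes. Il2rb, the beta chain shared by the receptors of interleukins 2 and 15, read 5515 and 4436 in memory cells and 7489.5 and 6842 in regulatory cells. Il7r, the receptor of the survival cytokine interleukin 7, known to be low on regulatory cells, read 18389 and 21717 in memory and 7317 and 9034 in regulatory cells, 2.51-fold and 2.4-fold lower. Csf2rb, the chain shared by GM-CSF and interleukin 3 receptors, read 1914 and 588 in memory and 125 and 80.9 in regulatory cells; it is also abundant in myeloid cells. Il21r was higher, at 719.5 and 1068 in memory and 1858 and 1982 in regulatory cells, and so was the decoy receptor gene Il1r2 (827 and 872 in memory and 1509.9 and 1278 in regulatory cells).

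Receptors of TGF-beta differed by type. Tgfbr1 read 2385 and 1704 in memory cells and 3446 and 3932 in regulatory cells, Tgfbr2 9381 and 9346 in memory and 5976 and 6004 in regulatory cells, and the co-receptor gene Tgfbr3 1338 and 967 in memory and 509 and 409 in regulatory cells. Itgb8 and Itgav encode the integrin that frees TGF-beta from its latent complex, and read, in this order, 476 and 415 in memory and 1038 and 1331 in regulatory cells, and 2314 and 2374 in memory and 3541 and 4507 in regulatory cells. Smad3, which carries the signal to the nucleus, read 4131 and 3379 in memory and 2244 and 1776 in regulatory cells. Over the list of 21 measured genes of this pathway 1 was at least 2-fold higher in both genotypes (Itgb8) and 2 at least 2-fold lower (Tgfb3 and Tgfbr3). The shares of all measured genes were 1.34% and 2.74%, and the medians of the list -0.06 and 0.25.

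Among 18 measured chemokine and lipid receptors 7 were higher and 6 lower in both genotypes, beside 30.7% higher and 35.3% lower among all measured genes, so that the list did not lean to one side. Cxcr6, Ccr9 and Cxcr3 were at least 2-fold lower and Ccr3 at least 2-fold higher. Ccr9, a gut homing receptor that is also on the plasmacytoid list, read 5956 and 6393 in memory cells and 1170.0 and 941 in regulatory cells. Ccr7, the receptor for entry into lymph nodes, read 2353 and 1482 in memory and 4117 and 3374 in regulatory cells, and S1pr1, the receptor for exit from them, 1346 and 1433 in memory and 2679.7 and 2318 in regulatory cells. Ccr6 read 1237 and 728 in memory and 1700.1 and 1565 in regulatory cells. Cx3cr1 was at 131 and 1290.4 in memory and 84.1 and 91.2 in regulatory cells, so that 1 array stood above the other 3.

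Quiescence and lymph node homing genes were mostly higher on the regulatory arrays. Of 21 measured, 14 were higher and 4 lower in both genotypes, beside 30.7% and 35.3% of all measured genes. The medians were 0.55 and 0.50. Itga6, Tsc22d3 and Cd55 were at least 2-fold higher and Il7r at least 2-fold lower. Itga6, an integrin chain that binds laminin, read 1602 and 1367 in memory cells and 4471 and 4236 in regulatory cells. Tsc22d3, a glucocorticoid-induced gene, read 1085 and 1356 in memory and 2919.8 and 4243 in regulatory cells. Klf2, a factor of lymphocyte traffic, read 4249 and 6029 in memory and 4234 and 3929.8 in regulatory cells, lower in the Furin cKO pair and level in the control pair.

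Adhesion genes showed opposite directions for different integrins. Of 26 measured, Itga6, Selp and Itgb8 were at least 2-fold higher in both genotypes and Itga1 at least 2-fold lower. The shares of all measured genes were 1.34% and 2.74%. Itgal and Itgb2, which form LFA-1, read, in this order, 23480.0 and 23054 in memory and 11835 and 12961 in regulatory cells, and 22635 and 19476 in memory and 11173 and 10537 in regulatory cells. Cd44, by which memory cells were sorted, read 9134 and 7404 in memory and 4574 and 4229.5 in regulatory cells. Itga1, the collagen-binding chain of tissue-resident cells, read 202 and 233 on the memory arrays and lay below the floor on both regulatory arrays, at least 4.24-fold and at least 4.89-fold lower. Itgb1 and Itgb7 did not separate the populations in both genotypes.

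Interferon-stimulated genes were higher on the regulatory arrays for 16 of 25 measured members in both genotypes, and 5 were lower. All measured genes had 30.7% higher and 35.3% lower in both. The medians of the list were 0.48 and 0.47. Usp18, an ISG15 protease that dampens interferon signalling, read 1062 and 782 in memory cells and 3468 and 3024 in regulatory cells, 3.27-fold and 3.87-fold higher, and Ifit3 read 930.2 and 964 in memory and 2538 and 2061 in regulatory cells. Igtp, a GTPase induced by interferon-gamma, read 10766 and 12202 in memory and 19873 and 17963 in regulatory cells. Irf7, Rsad2 and Zbp1 differed in direction between the genotypes, and Bst2, also on the plasmacytoid list, was lower (4035 and 2544 in memory and 1574 and 1921 in regulatory cells).

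Components of T cell receptor signalling were close in the 2 populations, with medians of -0.21 and -0.14 over 29 measured genes. Themis, a regulator of receptor signal strength, was the 1 member at least 2-fold lower in both genotypes, at 3026 and 3483 in memory cells and 797 and 932 in regulatory cells. Zap70, Lat, Cd28 and Fyn were less than 2-fold apart in both genotypes. Genes induced by the receptor had medians of 0.27 and 0.27 over 26 measured. Of these, 14 were higher and 8 lower in both genotypes, against 30.7% and 35.3% of all measured genes. Nr4a1, which reports receptor signalling, read 1469 and 892 in memory and 2588 and 2785 in regulatory cells, and Myc read 953 and 780.0 in memory and 1828 and 1692 in regulatory cells. Dusp6, a phosphatase of the kinase ERK, read 2361 and 2994 in memory and 914 and 854 in regulatory cells, and Egr2 was alike (1363 and 1616 in memory and 1454 and 1618 in regulatory cells).

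Cell cycle genes did not differ by 2-fold in both genotypes in any of 35 measured members. They were lower in both for 23 and higher in both for none, against 35.3% and 30.7% of all measured genes. Their medians were -0.11 in the control and -0.87 in the Furin cKO pair. Mki67, a marker of dividing cells, read 1259.9 and 5261 in memory cells and 1074 and 2396 in regulatory cells, and Top2a, a topoisomerase of dividing cells, 897 and 3734 in memory and 939 and 1643 in regulatory cells. In both genes the Furin cKO array was the higher one within each population, and the groups overlapped. None of 16 NF-kB pathway genes, 16 glycolysis genes, 25 oxidative phosphorylation genes, 21 STAT and SOCS genes or 6 convertase genes was at least 2-fold apart in both genotypes in 1 direction.

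Among 13 measured heat shock genes 2 were at least 2-fold lower in both genotypes, beside 2.74% of all measured genes. Hspa1b and Hspa1a, which encode inducible HSP70, read, in this order, 4993 and 11686 in memory and 927 and 1431 in regulatory cells, and 447 and 1845 in memory and 140.3 and 120.3 in regulatory cells; these genes are near-identical copies and their probe sets may read both. Hspa8, the constitutive form, read 26284 and 29707 in memory and 22067 and 35379 in regulatory cells, with overlapping groups. Of 20 measured genes of the unfolded protein response Ern1, the sensor IRE1, was at least 2-fold lower (1228 and 1085 in memory and 258 and 346 in regulatory cells). Among 15 genes of the BCL2 family Bik was at least 2-fold lower, and the proapoptotic genes Bcl2l11 (1117 and 1389.9 in memory and 1752 and 2203 in regulatory cells) and Bid were higher. Lysosomal genes held Lgmn, the protease legumain, at least 2-fold higher (356 and 161 in memory and 767 and 912 in regulatory cells), and Ctsw, Ctsh, Ctsl and Cd68 at least 2-fold lower.

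**Figure D5:**
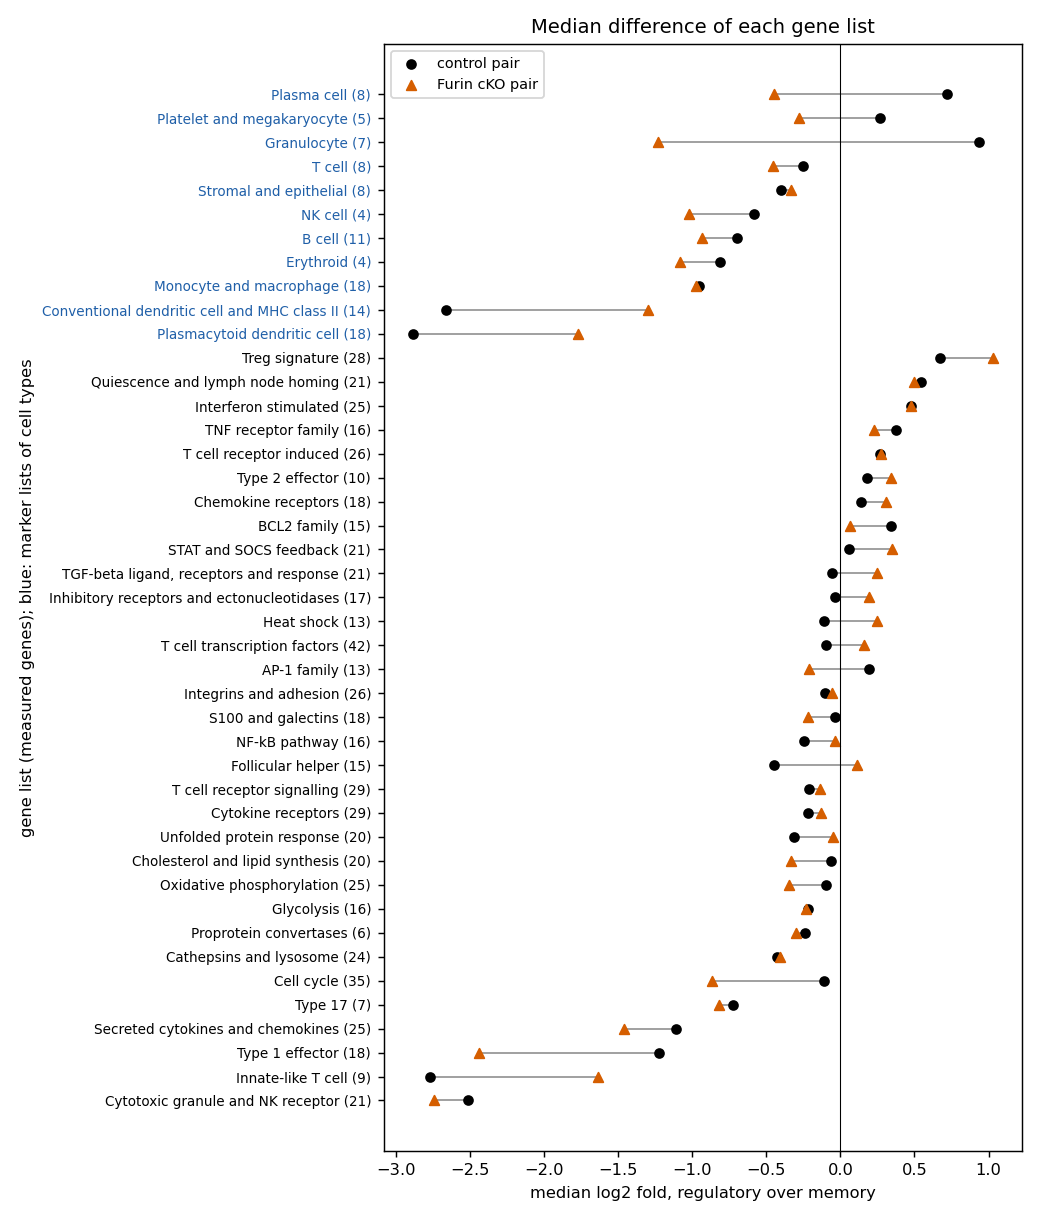
Median log2 difference of regulatory over memory signal in each gene list, circles for the control and triangles for the Furin cKO pair, with the number of measured genes in brackets and marker lists of cell types in blue. The Treg signature lies farthest right among the programmes, at 0.67 and 1.03, and the cytotoxic, innate-like and type 1 lists farthest left, beside the dendritic cell lists.

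Outside the lists, genes were ranked by the smaller of their 2 log2 differences among those above the floor on all 4 arrays. Clone and predicted names were left out. The upper end held, beside Gpr83, Ecm1, Il2ra, Ctla4 and Usp18, the erythroid and mast cell factor gene Gata1, which read 129 and 160.5 in memory cells and 728 and 633 in regulatory cells. Neb, the gene of the muscle protein nebulin, read 237 and 184 in memory and 913 and 1129.7 in regulatory cells. F13a1, a coagulation factor chain, read 142 and 221 in memory and 549.5 and 736 in regulatory cells. Csrp2 and Cnn3, which encode proteins of the actin cytoskeleton, read, in this order, 85.7 and 115 in memory and 326 and 373 in regulatory cells, and 139 and 272 in memory and 782 and 879.6 in regulatory cells. Slc35d1, a nucleotide sugar transporter, read 249 and 249 in memory and 810.0 and 900.1 in regulatory cells, and Rps4l, a ribosomal protein gene with close relatives, 53.9 and 99.9 in memory and 347 and 390.4 in regulatory cells. Slc15a2, a peptide transporter, fell outside that ranking because 1 memory array lay below the floor, and was chosen for mention after its values were seen. It read 369 and 30.4 in memory and 2291 and 1896 in regulatory cells, 6.21-fold and at least 39.8-fold higher, while its other probe sets above the floor had mean log2 differences between -0.97 and 0.36. With the mean over its probe sets the log2 difference, averaged over the genotypes, was 1.12 in place of 3.98.

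Other probe sets of a described gene did not always share its direction. Among the genes at least 2-fold lower in both genotypes, Zbtb16, Tgfbr3 and Ern1 each had 1 other probe set above the floor with a mean log2 difference above 0, at 0.32, 0.12 and 0.12. All other probe sets of Ern1 lay between -0.16 and 0.12, so that its difference rests on the brightest. Some genes at least 2-fold apart had another probe set of the same direction but near 0. It gave 0.06 for Capg, -0.09 for Tox2 and -0.07 for Ctsl, and the lowest of Tsc22d3 gave 0.02. The one nearest 0 gave -0.03 for Ccr9 and -0.18 for Tcf4. Among the genes less than 2-fold apart, the other probe set of Prf1 gave 1.78, and both others of Smad3 lay between 0.15 and 0.53. The other probe set of Runx3, of Itgal and of Tgfb1 gave 0.20. Maf differed in direction between the genotypes by its brightest probe set, while its others gave between -0.53 and -0.35. At least 1 other probe set also went the opposite way for Rora, Tgfbr2, Tnfrsf9, Itgav, Bcl2l11, Fgl2 and Hspa8, so that the directions given for these genes are those of their brightest probe set.

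The lower end held Cxcr6, Xcl1, Id2, Ctsw, Siglech, Nkg7 and Klrd1, described above, and 5 more genes. St3gal6, a sialyltransferase, read 1153 and 1336 in memory cells and 84.1 and 97.3 in regulatory cells, and Ctla2a, a cathepsin inhibitor, 1949 and 3644 in memory and 215 and 327 in regulatory cells. Mpeg1, a pore-forming protein of macrophages on the monocyte list, read 6746 and 3575 in memory and 311 and 278 in regulatory cells. Sostdc1, a secreted BMP antagonist, read 1252 and 622 in memory and 73.4 and 52.8 in regulatory cells. Klk1b27, a kallikrein with near-identical family members that its probe set may also read, read 1244 and 725 in memory and 106 and 63.1 in regulatory cells. Its relative Klk1 is on the plasmacytoid list, with log2 differences of 0.09 and -0.36 by its brightest probe set. The other probe sets of Klk1 had mean log2 differences between -5.40 and -4.99.

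Some genes lay below the floor on both arrays of the dimmer population. Ager, Ccr3 and Cd1d2 did so on the memory arrays. Ccr3, an eotaxin receptor, read 7.5 and 45.3 in memory cells and 223 and 245 in regulatory cells, at least 4.69-fold and at least 5.15-fold higher, and Ager, the receptor for glycated proteins, 25 and 11.5 in memory and 226 and 266 in regulatory cells. Cd1d2 has a near-identical copy. On the regulatory arrays the genes with the largest bounds were Smim5, Klra17, Clec10a, Aqp9, Batf3, Cd180, Slamf8 and Sncb. Klra17 read 1005 and 357 in memory cells and 3 and 20.4 in regulatory cells, at least 21.1-fold and at least 7.49-fold lower, and Batf3, a factor of conventional dendritic cells that activated T cells also carry, 319 and 253 in memory and 29.2 and 7.8 in regulatory cells. Clec10a, a lectin of macrophages and dendritic cells, read 499 and 342 in memory and 34.4 and 41.7 in regulatory cells. For Smim5, Klra17 and Aqp9 the control memory array was over 2-fold above the Furin cKO one.

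Of the 62 genes at least 2-fold apart in opposite directions, 44 were higher on the regulatory array in the control pair and lower in the Furin cKO pair, and 18 the reverse. Fos and Jun, the classic AP-1 subunits and early response genes, belonged to the 44, and were chosen for mention after their values were seen. Fos read 628 and 4469 in memory cells and 1427 and 478 in regulatory cells, and Jun 394 and 2441 in memory and 814 and 209.5 in regulatory cells, so that the Furin cKO memory array was highest and the Furin cKO regulatory array lowest in both. Jchain and Igha, genes of plasma cells, also belonged to the 44, with the Furin cKO memory array highest and the control memory array lowest: Jchain read 374 and 3185 in memory and 2190.5 and 1315 in regulatory cells, and Igha 2754 and 14979.8 in memory and 13170.1 and 5947 in regulatory cells. Of 13 measured genes of the AP-1 family 4 were higher and 4 lower in both genotypes, near the 30.7% and 35.3% of all measured genes. Batf3 was the 1 at least 2-fold lower in both. Junb, a relative of Jun, read 1589 and 1578 in memory and 2007 and 1681 in regulatory cells.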

How the data were processed

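The authors deposited linear array intensities, 1 column per array. These are MAS5 signals according to the submitters' processing notes, and the MAS5 version was not given in the sources used here. Trizol RNA was turned into biotinylated cRNA, per the labels' protocols. Of 45101 probe sets 64 are controls and 34945 carry 1 gene symbol in the platform annotation, 34741 of which matched RefSeq by Entrez identifier. Each of the 18193 genes was represented by its brightest probe set (mean log2 over 6 arrays), and signals below 47.6 (pooled 40th percentile) were raised to that floor. Where a called gene had several probe sets above the floor (257 genes), another went the opposite way in 73. Log2 differences were taken within each genotype, and limma 3.58.1 in R 4.3.3 fitted population and genotype to 6 arrays, with Benjamini-Hochberg adjustment; the script was tested on simulated data. The number of arrays limits the precision.

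The members and gene lists were chosen with earlier results of these data known. Of 715 list genes, 62 had no symbol match and were not analysed here. The genes named are the 12 each way with the largest smaller log2 difference among genes above the floor on 4 arrays and at or above 144.8 (pooled 60th percentile) in the brighter population; up to 8 each way with the largest bounds; Ctla4, Il2ra, Gpr83, Cxcr6 and Ctsw; up to 6 members of each list and others that describe it; and up to 4 each way with opposite directions. Promoter windows and their motif matches are from RefSeq GRCm38.p6. Alternatives were other floors, quantile and cyclic loess normalization, mean probe sets, a filter on dim genes, other model terms, left-out arrays and exchanged memory arrays.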

Additional observations from a re-analysis of the deposited data

Results flagged for a closer look

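Of the genes at least 2-fold apart in opposite directions in the 2 genotypes, those with a bright array in each pair were ranked by the smaller of their 2 absolute log2 differences, and the leading ones are given here as the log2 difference in the Furin cKO pair minus that in the control pair. The value was -3.21 for the mitotic kinase gene Nek2. It was -4.18 or lower for Mroh2a, -4.33 or lower for Mt3, which encodes metallothionein 3, and -3.20 or lower for Car1, a carbonic anhydrase, since each had an array below the floor. Nek2 read 64.7 and 395 in memory and 190.5 and 126 in regulatory cells, control first. In the other direction it was 2.96 for Creld1, at least 2.96 for Tfeb, a lysosomal transcription factor, and at least 3.20 for Tmem151a. Tfeb read 377 and 37.4 in memory and 177 and 174 in regulatory cells, so that the Furin cKO memory array, below the floor, set it apart. For the genes described above, chosen by another rule or after their values were seen, the difference was -4.41 for Fos, -4.59 for Jun, -3.82 for Jchain and -3.59 for Igha.

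The medians of 2 marker lists also had opposite signs in the genotypes. Granulocyte genes had a median of 0.94 in the control and -1.23 in the Furin cKO pair, a difference of -2.17 over 7 genes, and plasma cell genes 0.72 and -0.45, a difference of -1.17 over 8 genes. S100a8 of the granulocyte list read 259 and 2736 in memory and 444 and 1032 in regulatory cells. With 1 array per group none of these differences between the genotypes was tested, and the memory array labelled Furin cKO had the highest signal of Furin as well.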

How the results depend on the processing

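The counts of genes at least 2-fold higher and lower in both genotypes (179 and 366) were 575 and 662 with a 20th percentile floor and 93 and 198 with a 60th. They were 126 to 151 and 305 to 386 with loess, quantile and a floor per array, 133 and 264 with mean probe sets, and 120 and 228 over genes above the floor on all 4 arrays. The control pair alone gave 630 and 850 and the Furin cKO pair 816 and 1119. The limma counts, 0 and 0, were 185 and 265 with the 60th percentile floor, 66 and 152 with a floor per array, 3 and 18 with mean probe sets and 175 and 261 above the floor on all 4 arrays. They were 268 and 385 with no genotype term and 47 and 108 with a variance trend. They stayed at 0 and 0 with the 20th percentile floor, quantile, loess, the exchanged memory arrays (smallest adjusted p 0.0615) and the 4 arrays alone (0.071). Without each of the 4 arrays in turn they ranged from 0 to 0, with smallest adjusted p from 0.181 to 0.342; a population left with 1 array was then assumed to vary like the others. Cdh5 reversed to 1.99 with the 20th percentile floor. The median of the stromal and epithelial list reversed to 0.45 at the 20th and 0.76 at the 60th percentile floor and to 0.33 in the Furin cKO pair, and that of the type 17 list to 0.10 at the 60th; the cause was not tested. Of the other values for named genes 1751 moved by less than the spread between genotypes and 258 by more, and of those for list medians 301 and 76. The labels give no replicate numbers, so that no replicate block was fitted; arrays were matched by genotype, and the fit without that term is given above.

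Signals near the floor limit what can be read: genes dim in one population have bounds, and the counts moved with the floor, with the use of 1 pair alone and, for limma, with the genotype term. With 1 array per group no spread between animals is known. Foxp3 read opposite to the sorting label.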
